A study of Mus musculus with 292 samples.

Results

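Regulators of G protein signalling (RGS) are proteins that share one conserved domain, and the genes described here are 10 of them: Rgs16, Rgs2, Rgs3, Rgs4, Rgs5, Rgs8, Rgs7, Rgs9, Rgs10 and Rgs14. They were chosen by symbol from the gene tables of a mouse time series, as 10 of 48795 gene identifiers, of which 48349 could be matched to a symbol. The series used wild-type C57BL/6J males, 26 weeks old, with no treatment named, sampled at 3 h steps across 36 h, and sequenced messenger RNA of cortex (the right hemisphere, per the labels), striatum, hypothalamus and liver. The mice carry 79 codes and gave 78 libraries of cortex, 77 each of hypothalamus and liver and 60 of striatum. The code of striatum ZT9 replicate 8 lacks 1 letter of a code that the other 3 tissues carry at the same time, and it was kept as written, so this library did not enter the fits blocked by mouse. Times are zeitgeber time (ZT), conventionally counted in hours from lights-on, so that a sample taken at 24 h is a second sample of ZT0. Cortex had 12 libraries at each of ZT0, ZT3, ZT6, ZT9 and ZT12 and 6 at each of ZT15, ZT18 and ZT21, and hypothalamus and liver had the same numbers except for 11 at ZT9. Striatum had 9, 8, 11, 9, 11, 2, 4 and 6 libraries from ZT0 to ZT21. The second cycle repeated ZT0 to ZT12, and ZT15 to ZT21 come from the first cycle alone.

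Receptors coupled to G proteins act by loading GTP onto a G alpha subunit, and the signal lasts until that GTP is hydrolysed. The RGS domain speeds up this hydrolysis on Gi and Gq subunits, so a cell's stock of RGS protein limits how strong and how long such signals are. The small R4 members (Rgs16, Rgs2, Rgs3, Rgs4, Rgs5 and Rgs8) are, apart from the longer Rgs3, little more than the domain itself and are often controlled through their mRNA level, the R7 members (Rgs7 and Rgs9) work as complexes with the G beta subunit Gnb5, and the R12 members include Rgs10 and Rgs14. In brain, Rgs16 is known for setting the timing of cyclic AMP signalling in the suprachiasmatic nucleus, and in liver for its expression in hepatocytes near the portal vein during fasting.

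The promoters of Rgs16 and Rgs7 are shown because these genes are the members that were called rhythmic in 3 tissues each. The sequences run 5′ to 3′ over the 250 bases before the RefSeq start on GRCm38.p6, with matches to the motifs searched in capitals. The window of Rgs16 is chr1:153740103-153740352 on the plus strand and that of Rgs7 is chr1:175492546-175492795 on the minus strand.
Rgs16: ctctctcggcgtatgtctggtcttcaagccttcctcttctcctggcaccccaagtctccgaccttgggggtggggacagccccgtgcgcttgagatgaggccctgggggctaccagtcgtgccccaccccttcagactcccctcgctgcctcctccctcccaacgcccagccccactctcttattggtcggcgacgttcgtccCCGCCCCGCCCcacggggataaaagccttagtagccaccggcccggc
Rgs7: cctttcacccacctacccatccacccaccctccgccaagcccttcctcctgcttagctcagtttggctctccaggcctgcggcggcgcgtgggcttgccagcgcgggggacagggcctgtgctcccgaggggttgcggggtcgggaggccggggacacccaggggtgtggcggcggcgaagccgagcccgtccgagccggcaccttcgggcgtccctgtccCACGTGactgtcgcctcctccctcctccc
The capitals in Rgs16 are CCGCCC, the reverse complement of the GC box GGGCGG, at 47 and 42 bases before the start, with 1 base shared between the matches. The capitals in Rgs7 are the E-box CACGTG, the letters bound by the clock factors CLOCK and BMAL1, at 29 bases before the start. Both strands were searched, in 12 windows of 9 members (Rgs14 was not searched) and in 32851 promoter windows of the same length. CACGTG was in 6.02% of all promoters and in 1 of the 12 member windows, and GGGCGG was in 32.7% of all promoters and in 5 of the 12. TATAAA (12.4% of promoters) was in 4 of the 12, and TGACG, the short form of the cyclic AMP response element (17.8%), was in 3, those of Rgs2, Rgs4 and Rgs8. The E-box variant CACGTT (3.85%), the D-box TTATGTAA or TTACGTAA (0.932%), the core TAGGTCA bound by ROR and REV-ERB (2.23%), the full element TGACGTCA (1.55%) and the carbohydrate response element bound by ChREBP (0.28%) were in 0 of the 12. A match describes the letters and was not tied to binding here.

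Median depth, in mega counts (M) per library, was 33.5 M in cortex, 33.8 M for striatum, 34.1 M for hypothalamus and 32.9 M for liver, with a lowest of 28.3, 11.7, 29.2 and 11.7 M. The tissue labels were checked against defining markers: Slc17a7, of cortical excitatory neurons, had a median of 1082 CPM (counts per M of the TMM-scaled library) in cortex, Avp and Hcrt had 161 and 88.3 CPM in hypothalamus, and Alb had 79315 CPM in liver. Drd1, a dopamine receptor of striatal projection neurons, ran from 0.408 to 391 CPM in striatum with a median of 97.0 CPM, a wide spread for a marker of the tissue's main neurons. Several libraries stood apart and were kept in all fits, with a second fit without them. In replicate 1 of ZT0 and replicate 9 of ZT9 in cortex the summed markers of cortical excitatory neurons were 20.1 and 25.5 CPM against a median of 1610 CPM, and those of striatal projection neurons were 4435 and 7310 CPM against a median of 1310 CPM. In the striatum library ZT21 replicate 3 cerebellar markers summed to 3159 CPM against a median of 2.46 CPM, and the striatum library ZT3 replicate 5 was shallow. In replicate 9 of ZT0 and of ZT9 in hypothalamus pituitary hormone transcripts summed to 38488 and 27762 CPM against a median of 59.7 CPM. In the liver library ZT18 replicate 4 the members had between 0 and 46 counts each. The libraries are bulk tissue, in which fewer cells of a type and less RNA per cell cannot be told apart.

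In liver Rgs16 was lowest around the end of the night, climbed through the day to its highest level near ZT9 and was low again by ZT15. At ZT21 the 6 libraries had 0.304 (lowest), 0.991 (median) and 1.87 CPM (highest), and at ZT0 the 12 libraries had 0.379, 0.674 and 3.82 CPM. At ZT6 the 12 libraries had 7.90, 24.0 and 89.2 CPM, and at ZT9 the 11 libraries had 30.9, 122 and 189.6 CPM. The highest libraries were all at ZT9 and ZT12, where each of 23 libraries had at least 20.9 CPM, while each of the 42 libraries from ZT15 to ZT3 had at most 15.9 CPM. The ZT6 libraries overlapped both sets, and 4 of the 42 exceeded the lowest of ZT6. The ZT9 mean of 114 ± 51.1 CPM (SD, n = 11) was 119 times the ZT21 mean of 0.955 ± 0.557 CPM (SD, n = 6), with no overlap between the groups. In the files' FPKM, fragments scaled by both gene length and depth, the same groups were at 49.6 ± 22 (SD, n = 11) and 0.415 ± 0.238 (SD, n = 6).

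A 24 h cosine was fitted to each gene's counts by edgeR's quasi-likelihood test, and a gene was counted as rhythmic where the p-value for the cosine and sine terms, adjusted by the Benjamini-Hochberg method over all genes tested in the tissue, was under 0.05. For liver Rgs16 the fitted peak was 172-fold above the trough (log2 7.42 ± 0.37, SE, n = 77), with the peak at ZT9.98 ± 0.178 h (SE) and an adjusted p of 2.72e-29. Among all genes called in liver this ratio ranked 2, after the clock activator Npas2 (353-fold, peak ZT0.28) and before the clock-controlled transcription factor Dbp (132-fold, peak ZT9.69), while by p-value Rgs16 ranked 62. Time of day held 88.6% of the variance of log2 CPM. Over 10 alternative fits the log2 ratio ran from 6.90 to 7.62.

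**Figure D1:**
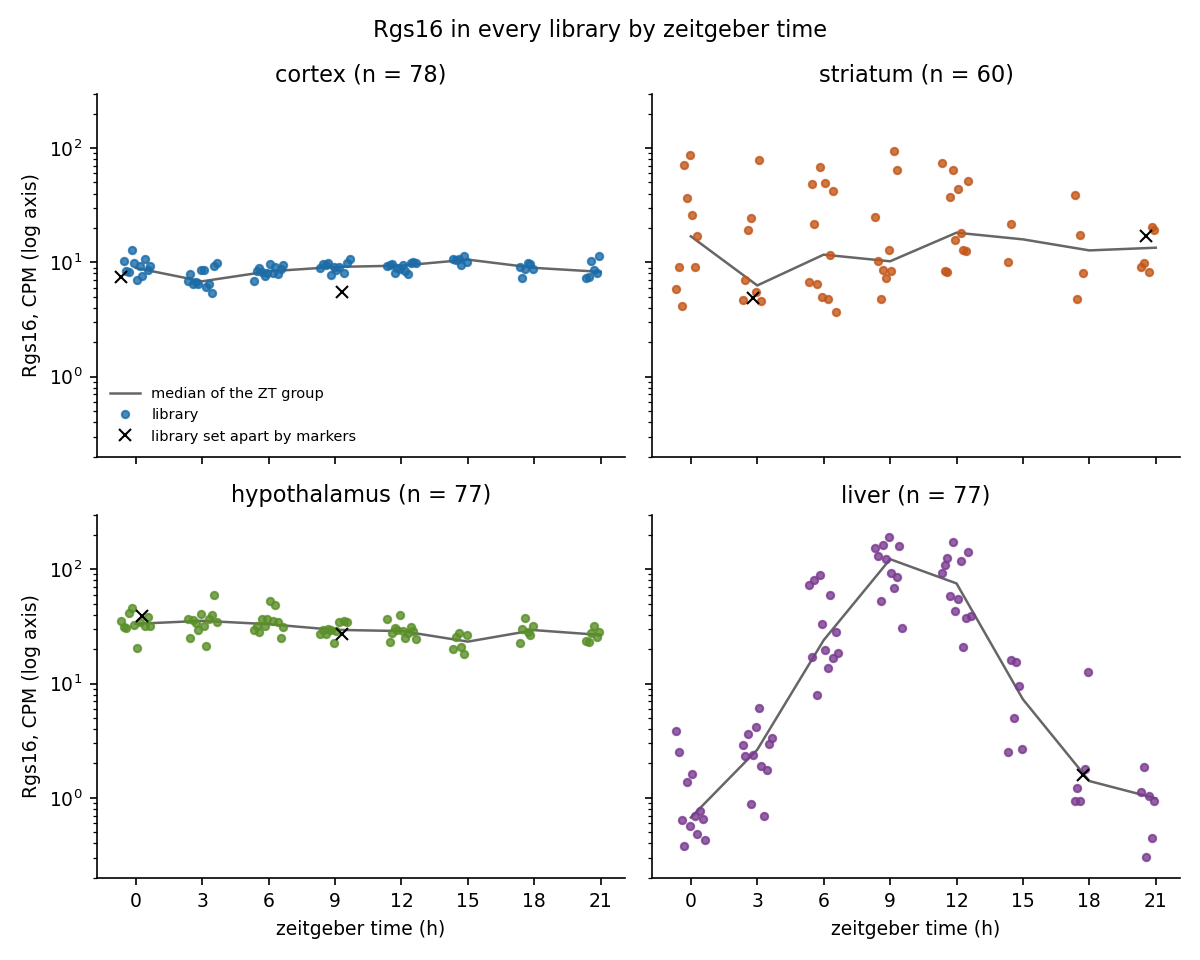
Rgs16 in each library of the 4 tissues against zeitgeber time (h), in CPM on a log axis; points are libraries, the line joins the medians of the ZT groups, and crosses are the libraries that stood apart. Liver libraries at ZT9 and ZT12 lie at 20.9 CPM or more and those from ZT15 to ZT3 at 15.9 CPM or less, hypothalamus and cortex move little, and striatum libraries of the same ZT spread widely.

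Mice sampled at the same ZT differed widely in liver Rgs16. At ZT6 the SD of 29.2 CPM was close to the mean of 38.1 CPM, and at ZT12 the mean was 84.2 ± 48.4 CPM (SD, n = 12), with libraries from 20.9 to 172 CPM. Dbp, with a similar peak, had 176 ± 11.7 CPM (SD, n = 11) at ZT9 and 1.09 ± 0.324 CPM (SD, n = 12) at ZT0, so its libraries lay closer together at the peak than those of Rgs16. The spread within a ZT was seen in both cycles: Rgs16 was at 111 ± 55.6 CPM (SD, n = 6) at 9 h and 116 ± 51.5 CPM (SD, n = 5) at 33 h, and at 38.6 ± 36.3 (SD, n = 6) and 37.6 ± 23.6 CPM (SD, n = 6) at 6 h and 30 h. Whether the second cycle differed from the first was tested at the 5 times both hold, with ZT as a factor, and the second was higher by 0.29 ± 0.23 on the log2 scale (SE, edgeR adjusted p = 0.801). A second harmonic with a 12 h period lets the profile depart from 1 cosine, for example by a sharp or a double peak. It had a fitted log2 ratio of 1.09 ± 0.35 (SE, edgeR adjusted p = 0.0978). The curve with both terms peaked at ZT9.5 and was lowest at ZT23.1.

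In hypothalamus Rgs16 was highest in the early day, in cortex in the early night, and in both tissues the high and low groups overlapped. At ZT3 the 12 hypothalamus libraries had 21.1 (lowest), 35.4 (median) and 59.7 CPM (highest), and at ZT15 the 6 libraries had 18.0, 23.3 and 27.8 CPM. The groups overlapped, with means of 35.5 ± 9.59 (SD, n = 12) and 23.2 ± 4.06 CPM (SD, n = 6). The fitted peak was 1.38-fold above the trough (log2 0.46 ± 0.09, SE, n = 77) at ZT3.63 ± 0.745 h, with an edgeR adjusted p of 0.000266. In cortex the 12 libraries of ZT3 had 5.35, 6.83 and 9.83 CPM and the 6 of ZT15 had 9.52, 10.6 and 11.5 CPM, so the ZT15 libraries were high and overlapped only the top of the ZT3 group. The fitted ratio in cortex was 1.21-fold (log2 0.28 ± 0.07, SE, n = 78) with the peak at ZT15.7 ± 0.941 h and an edgeR adjusted p of 0.0036. In the first cycle alone, the cortex ratio was 0.15 on the log2 scale with an edgeR adjusted p of 0.285. The cortex groups of ZT15 to ZT21 come from the first cycle alone. At the times both cycles hold, cortex Rgs16 in the second differed from the first by -0.14 ± 0.05 on the log2 scale (SE, edgeR adjusted p = 0.0817). The peaks of hypothalamus and cortex lay on opposite sides of the day, and the test of the difference between both rhythms gave a log2 size of 0.74 ± 0.12 (SE, edgeR adjusted p = 8.78e-06). Over the same pair of tissues, 6.14% of all genes tested had such a difference, and 1 of the 10 members, Rgs16, was among them.

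Striatum Rgs16 had no rhythm past the test. Its libraries ran from 3.71 through a median of 12.9 to 94.5 CPM, with high and low libraries in most ZT groups: at ZT3, 1 of 8 libraries had 78.9 CPM. The fitted log2 ratio was 0.49 ± 0.49 (SE, n = 60, edgeR adjusted p = 0.877). What the striatum values did follow was the summed level of 4 thalamic genes (Tcf7l2, Prkcd, Rora and Slc17a6), which ran from 61.6 through 222 to 1434 CPM in these libraries, none of the 4 being at 0 in any of them. Across the 60 libraries Pearson's r between log2 CPM of Rgs16 and of that sum was 0.94 and Spearman's rho was 0.94, with permutation p-values adjusted over 180 relations of 4.09e-05 and 3.83e-05, from raw values of 1e-05, the smallest that 100000 permutations can give. Without the 2 libraries farthest from the median r was 0.94, and it was 0.91 within the first cycle (n = 34) and 0.96 within the second (n = 26). With the summed markers of striatal projection neurons, which ran from 182 to 10377 CPM, r was -0.82 and rho was -0.84, and r was -0.80 without the 2 farthest libraries. These marker sums moved with Rgs16 across the striatum libraries, and their part in the level was not tested.

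**Figure D2:**
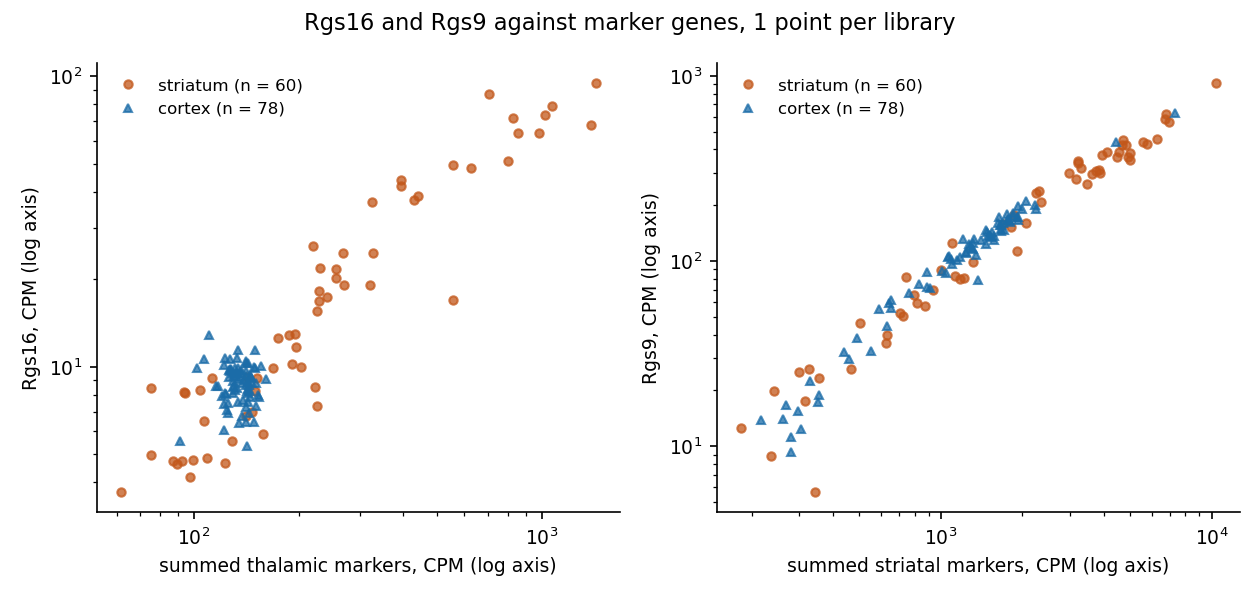
Left, Rgs16 against the summed thalamic markers, and right, Rgs9 against the summed striatal markers, in CPM on log axes; each circle is a striatum library (n = 60) and each triangle a cortex library (n = 78). Striatum points rise together in both plots (r = 0.94 and 0.98), and cortex points do so for Rgs9 (r = 0.98).

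All 10 members passed the filter on low counts in the brain tissues and 9 of them in liver. Of the 9 tested in liver 7 were called rhythmic (Rgs16, Rgs2, Rgs3, Rgs4, Rgs5, Rgs7 and Rgs14), where 72.8% of all genes tested were, and 5 of the 9 had a fitted ratio of at least 1.5-fold, against 27.9% of all genes. In the first cycle alone 5 of the 9 were called in liver, with edgeR adjusted p-values of 0.0620 for Rgs3 and 0.0819 for Rgs5. In cortex 3 of 10 were called (Rgs16, Rgs3 and Rgs7) against 43.7% of all genes, with 0 of 10 at 1.5-fold or more against 8.09%. In hypothalamus 2 of 10 were called (Rgs16 and Rgs7) against 24.3%, with 0 at 1.5-fold against 4.64%. In striatum 0 of 10 were called by edgeR against 5.7% of all genes (3.1% at 1.5-fold or more), with 2 members at an unadjusted p under 0.05 (Rgs4 and Rgs8), while the likelihood ratio test of DESeq2 called 1, Rgs8. The median fitted log2 ratio of the members was 0.67 in liver beside 0.38 over all genes, 0.18 beside 0.19 in cortex, 0.10 beside 0.16 in hypothalamus and 0.45 beside 0.24 in striatum. A fitted log2 ratio is never negative and noise alone raises it, so these medians do not show larger rhythms than in other genes. In striatum the SE reached 0.56, for Rgs9, and the liver median is the value of Rgs14, with an SE of 0.22. In liver 6 of the 7 fitted peaks fell between ZT0 and ZT12 and that of Rgs3 after ZT12. The share of all called liver genes that peak in these hours was not computed.

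**Figure D3:**
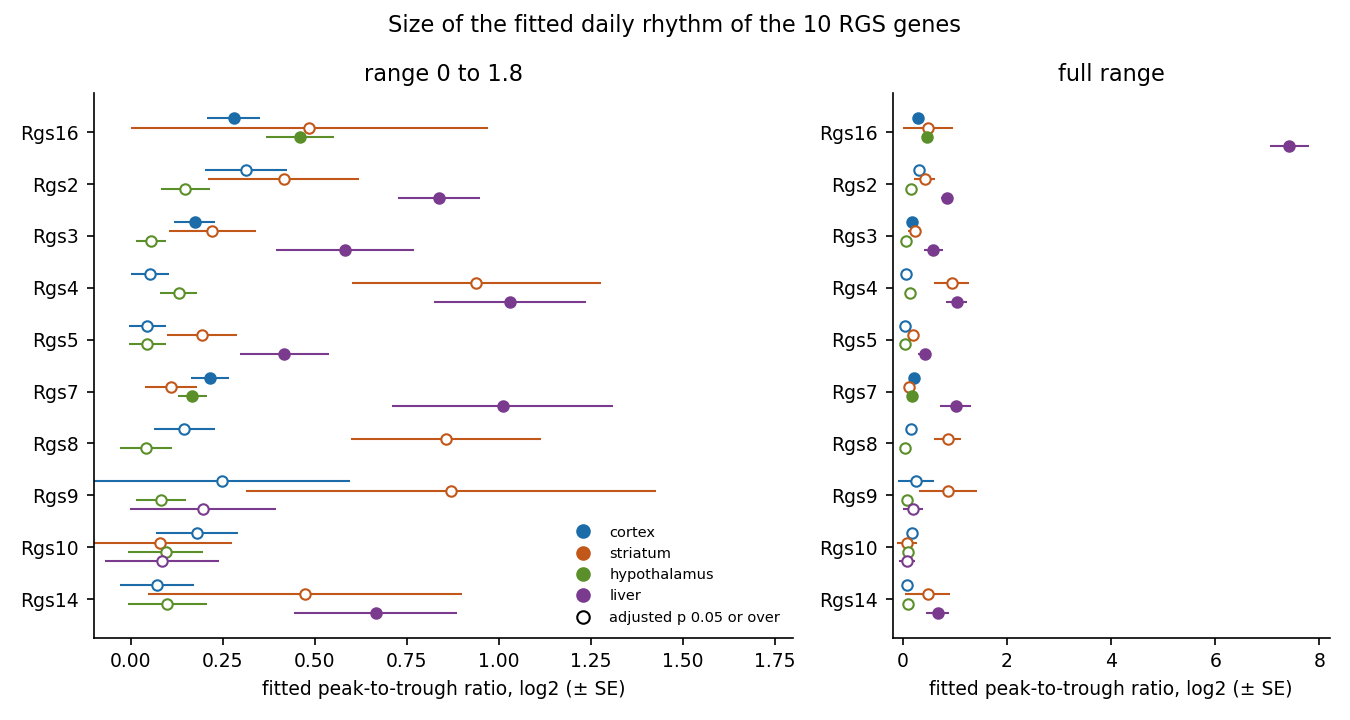
Fitted peak-to-trough ratio (log2) of the 10 genes in the 4 tissues, with bars of ± 1 SE; filled symbols have an adjusted p under 0.05 and open ones do not, and the left panel enlarges the range that the right panel shows in full. Liver Rgs16 stands alone at 7.42, and the other called ratios run from 0.17 to 1.03.

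Among the other R4 genes of liver, Rgs2, which acts mainly on Gq, had the smallest p-value. At ZT6 the 12 libraries had 2.68 (lowest), 3.66 (median) and 5.48 CPM (highest), and at ZT15 the 6 libraries had 1.71, 2.01 and 2.38 CPM. These groups did not overlap, with means of 3.62 ± 0.818 (SD, n = 12) and 2.05 ± 0.257 CPM (SD, n = 6). The fitted ratio was 1.79-fold (log2 0.84 ± 0.11, SE, n = 77) with a peak at ZT4.03 and an edgeR adjusted p of 1.99e-09. Rgs4, the abundant R4 member of cortex, was low in liver, with at most 110 counts in a library. It had 0.540, 1.13 and 2.58 CPM at ZT6 and 0.395, 0.616 and 1.06 CPM at ZT18, which overlap, and the fitted ratio was 2.04-fold (log2 1.03 ± 0.21, SE) with a peak at ZT8.55 and an edgeR adjusted p of 2.73e-05.

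Rgs3, a longer R4 gene with several start sites, moved the other way in liver, with its fitted peak at ZT17.2. The 12 libraries at ZT6 had 2.25, 4.02 and 9.75 CPM and the 6 at ZT15 had 4.89, 8.50 and 14.3 CPM, so the night libraries were higher but overlapped those of the day. The fitted ratio was 1.498-fold, just under 1.5 (log2 0.58 ± 0.19, SE, edgeR adjusted p = 0.0169), and the call was lost when libraries were scaled by their totals alone (adjusted p = 0.105). Rgs5, the RGS gene of pericytes and other mural cells, had 22.8, 25.7 and 54.8 CPM at ZT21 and 18.2, 20.8 and 27.7 CPM at ZT18, with 1 high library at ZT21. Its fitted ratio was 1.34-fold (log2 0.42 ± 0.12, SE, edgeR adjusted p = 0.00644) with a peak at ZT2.64, and with the ZT groups as a factor the adjusted p was 0.0804. Markers of other liver cells were also read by ZT, as group medians with no test. The median summed level of hepatic stellate markers was 86.4 CPM at ZT3, 86.3 CPM at ZT9 and 71.4 CPM at ZT12. That of endothelial markers was 63.4, 53.4 and 43.3 CPM. For the Kupffer cell markers Clec4f, Cd5l and Vsig4 it was 123, 76.8 and 79.6 CPM. The ZT3 and ZT12 groups overlapped in each list. Cholangiocyte markers had their highest median, 16.9 CPM, at ZT0 and their lowest, 6.30 CPM, at ZT12. The part of these cell markers in the rhythms of Rgs2 and Rgs5, which peak near ZT3, was not tested.

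Rgs8, best known from cerebellar Purkinje cells, is the member closest to Rgs16 in the genome, with 40026 bases between them on chromosome 1. It was at 0 counts in 61 of the 77 liver libraries and did not pass the filter on low counts, so no rhythm was fitted. Of its 46 counts in all liver libraries, 44 fell at ZT6 to ZT12, and 33 of them at ZT9, in 7 of 11 libraries. Summed over the ZT9 libraries this was 0.0900 CPM, while ZT0 had 0 counts in 401 M, which allows up to 3 counts or 0.00747 CPM over the group. The ZT9 value was 12.0-fold above this limit at ZT0, 6.04-fold above that at ZT21 and 5.18-fold above that at ZT18. Such limits cover counting error in the groups at 0 counts only. The counting error of the 33 counts at ZT9 and the spread between animals were left out. The highest library had 7 counts.

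The R7 gene Rgs7, whose protein stabilises and is stabilised by Gnb5, was called in the 3 tissues other than striatum. In cortex the 12 libraries of ZT6 had 93.5, 98.4 and 121 CPM and the 12 of ZT0 had 51.5, 88.0 and 100.2 CPM, overlapping, with a fitted ratio of 1.16-fold (log2 0.22 ± 0.05, SE, edgeR adjusted p = 0.00156) and a peak at ZT9.35. In hypothalamus the 11 libraries of ZT9 had 62.6, 66.3 and 87.3 CPM and the 6 of ZT21 had 54.2, 56.3 and 69.7 CPM, also overlapping. The ratio was 1.12-fold (log2 0.17 ± 0.04, SE, edgeR adjusted p = 0.00306) with a peak at ZT10.8, and in the first cycle alone the adjusted p was 0.126. The rhythms of cortex and hypothalamus differed by a log2 size of 0.09 ± 0.07 (SE, edgeR adjusted p = 0.693). In liver Rgs7 had at most 26 counts in a library and was at 0 in 2 of them. It had 0.0889, 0.253 and 0.512 CPM at ZT3 and 0, 0.0750 and 0.287 CPM at ZT18, a 2.01-fold fitted ratio (log2 1.01 ± 0.30, SE, edgeR adjusted p = 0.00656) with a peak at ZT3.65. With the ZT groups as a factor the liver value was an adjusted p of 0.0815.

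The R12 gene Rgs14, which in brain marks hippocampal area CA2, was scarce in liver, with at most 24 counts in a library. It had 0.135, 0.313 and 0.643 CPM at ZT6 and 0.0557, 0.188 and 0.329 CPM at ZT15, overlapping, and a fitted ratio of 1.59-fold (log2 0.67 ± 0.22, SE, edgeR adjusted p = 0.0200) with a peak at ZT5.29. With the ZT groups as a factor the adjusted p was 0.155. Rgs10, an R12 gene of microglia and macrophages, had a liver ratio of 1.06-fold (edgeR adjusted p = 0.874), and Rgs9, the R7 gene of striatal neurons and retina, 1.15-fold (adjusted p = 0.642). Liver Rgs9 ran from 0.0629 to 0.790 CPM and Rgs10 from 0 to 2.43 CPM.

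**Figure D4:**
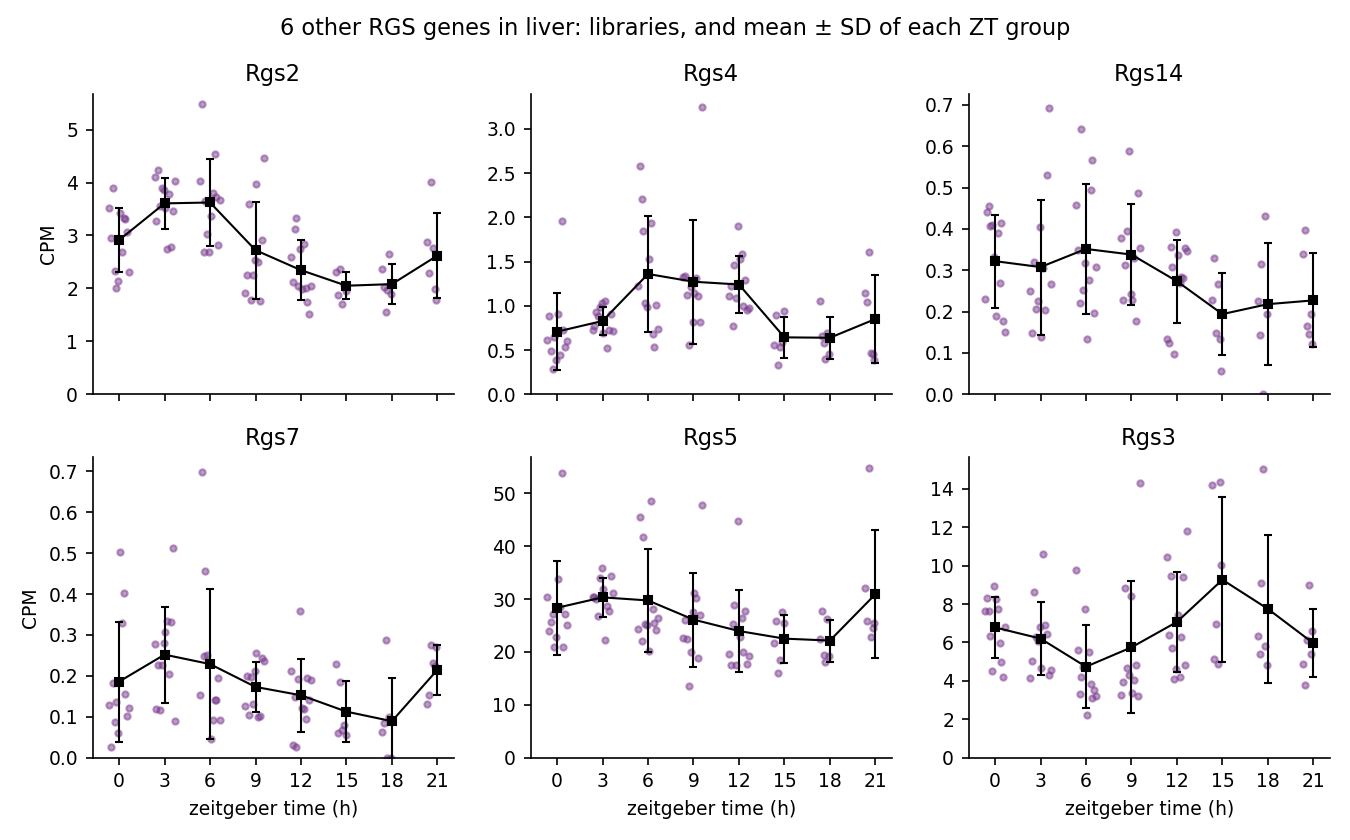
Rgs2, Rgs4, Rgs14, Rgs7, Rgs5 and Rgs3 in each liver library by zeitgeber time (h), in CPM; points are libraries and the bars give the mean ± SD of each ZT group. Rgs2 is high at ZT3 and ZT6 and low from ZT15, Rgs4 is high at ZT6 to ZT12, and Rgs3 has its highest mean, 9.26 CPM, at ZT15.

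In cortex Rgs3 had 12.2 CPM in its lowest and 15.3 CPM in its highest library at ZT3, beside 10.3 and 12.7 CPM at ZT15, a fitted 1.13-fold ratio (log2 0.17 ± 0.06, SE, edgeR adjusted p = 0.0239) with a peak at ZT5.69. With no filter on low counts its adjusted p was 0.0511, and with the ZT groups as a factor 0.0792. Cortex Rgs2, a gene induced by neuronal activity, just missed the threshold: it had 72.9 ± 23.5 CPM (SD, n = 12) at ZT0 and 51.8 ± 7.23 CPM (SD, n = 12) at ZT3, a log2 ratio of 0.31 ± 0.11 (SE, edgeR adjusted p = 0.0511) and a peak at ZT19.2. Without the 2 cortex libraries that stood apart the log2 ratio was 0.36 and the adjusted p 0.000361, and DESeq2 gave an adjusted p of 0.0381 with all libraries. Hypothalamus Rgs4 had a log2 ratio of 0.13 ± 0.05 (SE, edgeR adjusted p = 0.113).

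In striatum Rgs8 and Rgs4 had the smallest p-values among the members. Rgs8 was at 402 ± 565 CPM (SD, n = 6) at ZT21, where the library with cerebellar transcripts had 1554 CPM, and at 172 ± 37.7 CPM (SD, n = 5) without it. The log2 ratio was 0.86 ± 0.26 (SE, edgeR adjusted p = 0.0563) with all libraries and 0.43 (adjusted p = 0.289) without those that stood apart. Rgs4 had a log2 ratio of 0.94 ± 0.34 (SE, edgeR adjusted p = 0.176) with a peak at ZT3.33, and with the cycle as a covariate it was 1.21 (adjusted p = 0.0439). Across the striatum libraries Rgs4 ran from 16.9 to 1251 CPM.

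The rhythms of liver and brain were also compared directly, by the interaction of tissue with the cosine and sine terms. Between liver and cortex 6 of the 9 members tested differed (Rgs16, Rgs2, Rgs3, Rgs4, Rgs5 and Rgs7), where 63.6% of all genes did. Between liver and hypothalamus 7 of 9 differed, those 6 and Rgs14, against 60.6% of all genes, and between liver and striatum 4 of 9 (Rgs16, Rgs2, Rgs4 and Rgs7), against 42% of all genes. For Rgs16 the log2 size of the difference was 7.44 ± 0.36 against cortex (SE, edgeR adjusted p = 7.06e-44), 7.51 ± 0.36 against hypothalamus (adjusted p = 4.67e-44) and 6.89 ± 0.59 against striatum (adjusted p = 8.76e-20). For Rgs2 it was 1.10 ± 0.16 against cortex (edgeR adjusted p = 1.26e-08), where the peaks lay at ZT4.03 and ZT19.2. The difference of Rgs7 between liver and striatum, with an edgeR adjusted p of 0.00597, had one of 0.137 when the mouse was a block over the 58 mice with both tissues. Within the brain 0 of 10 members differed by edgeR between striatum and cortex (0.501% of all genes) or hypothalamus and striatum (0.292%), with 2 at an unadjusted p under 0.05 in each, Rgs4 and Rgs8. The share of all genes at the unadjusted threshold was not computed. These comparisons share libraries with each other.

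A second harmonic was called for 0 members in any tissue by edgeR, where 15.4% of all genes tested were called in liver, 0.332% in cortex, 0.0686% in hypothalamus and 0.0277% in striatum. At an unadjusted p under 0.05 there were 2 members in cortex (Rgs2 and Rgs8), 2 in striatum (Rgs8 and Rgs10), 0 in hypothalamus and 1 in liver (Rgs16). The share of all genes at this unadjusted threshold was not computed, and the shares above are for adjusted p-values.

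Between the cycles, Rgs9, Rgs14 and Rgs2 differed in cortex and Rgs4 in striatum. In cortex 3 of 10 members differed, all higher in the second cycle, where 6.82% of all genes tested differed, 4.59% higher and 2.23% lower. These were Rgs9 by 0.88 ± 0.26 on the log2 scale (SE, edgeR adjusted p = 0.0394), Rgs14 by 0.23 ± 0.07 (adjusted p = 0.0381) and Rgs2 by 0.25 ± 0.08 (adjusted p = 0.0461). In cortex 4 members had an unadjusted p under 0.05, these 3 and Rgs16, which was lower in the second cycle. The median of Rgs9 was 87.9 CPM in the first cycle (11.2 to 437 CPM, n = 30) and 158 CPM in the second (32.2 to 629 CPM, n = 30), the highest of each cycle being the 2 cortex libraries with the high striatal sums. Without them the difference was 0.87 (adjusted p = 0.00540). The summed striatal markers of the cortex libraries had medians of 949 and 1659 CPM. In striatum 1 of 10 members differed, Rgs4, which was lower in the second cycle, at -0.67 ± 0.19 (SE, edgeR adjusted p = 0.0467), where 2.92% of all genes differed, 2.27% lower and 0.656% higher. At an unadjusted p under 0.05 there were 7 (Rgs16, Rgs2, Rgs3, Rgs4, Rgs8, Rgs9 and Rgs14), a threshold at which the share of all genes was not computed. Among them Rgs16 had a log2 difference of 1.29 ± 0.38 (SE), or 2.44-fold, with an edgeR adjusted p of 0.0578. The median of Rgs4 fell from 369 to 234 CPM and the summed striatal markers went from a median of 3546 to 1049 CPM. The part of these markers in the differences was not tested. With no filter on low counts the adjusted p-values were 0.0598 for Rgs9, 0.0613 for Rgs14 and 0.0731 for Rgs2 in cortex, and without the libraries that stood apart 0.0722 for Rgs4 in striatum. In hypothalamus and liver 0 members were called by edgeR, as were 0% of all genes in both, with 1 each at an unadjusted p under 0.05 (Rgs14 and Rgs4).

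Rgs9 followed the summed markers of striatal projection neurons from library to library in both tissues, the gene being known for its expression in those neurons. In cortex Rgs9 ran from 9.27 through 121 to 629 CPM and the marker sum from 217 through 1310 to 7310 CPM, with Pearson's r of 0.98 and Spearman's rho of 0.98 on log2 CPM (n = 78). In striatum Rgs9 ran from 5.65 through 192 to 909.7 CPM, and r and rho were 0.98 and 0.98 (n = 60). Both pairs of values had permutation p-values, adjusted over the 180 relations, of 4.09e-05 and 3.83e-05, and r was 0.98 in each tissue without the 2 farthest libraries and between 0.97 and 0.98 within each cycle. Rgs8 and Rgs2 in cortex also rose with the striatal sum, with r of 0.79 and 0.74 (rho 0.91 and 0.72) and the same adjusted p-values, as did Rgs14 in striatum (r 0.84, rho 0.96) and Rgs4 in striatum (r 0.76, rho 0.85). Cortex Rgs16 went the other way, with r of -0.53 and rho of -0.51 (permutation p-values adjusted over the relations 4.09e-05 and 6.92e-05). Rgs10 rose with the summed microglia markers in all 3 brain tissues, with r of 0.82, 0.76 and 0.60 in cortex, striatum and hypothalamus (rho 0.52, 0.64 and 0.64) and the same adjusted permutation p-values, and without the 2 farthest libraries r was 0.60, 0.63 and 0.70. Rgs5 had r of 0.49 and rho of 0.52 with the pericyte and smooth muscle markers in striatum (adjusted permutation p-values 0.000282 and 6.92e-05), and 0.18 and 0.19 in cortex (0.180 and 0.159).

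Per gene length, Rgs4 had the highest median of the 10 genes in each brain tissue and Rgs5 in liver. Rgs4 had a median of 202 FPKM in cortex (126 to 244), 90.5 in striatum (5.64 to 359), 55.4 in hypothalamus (40.3 to 71.6) and 0.304 in liver (0.0276 to 1.08). Rgs16 had a median of 13 FPKM in hypothalamus (7.74 to 23.8), 5.77 in striatum (1.35 to 40.4), 3.80 in cortex (2.30 to 5.48) and 3.57 in liver (0.136 to 82.0). The liver mean at ZT9, 49.6 FPKM, was above the highest brain library, at 40.4 FPKM. In the order by tissue, all neighbours among the brain tissues overlapped for every member. The ranges of liver and of the brain tissue next above it overlapped for Rgs16 and Rgs3 alone. The share of all genes whose ranges part in this way was not computed. A striatum library, the one with cerebellar transcripts, had 0.0652 FPKM of Rgs14, within the range of liver.

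Median FPKM in striatum, cortex, hypothalamus and liver was 25.6, 25.1, 20.9 and 5.77 for Rgs5, and 30.7, 16.2, 30.4 and 0.770 for Rgs2. It was 32.9, 18.9, 8.01 and 0.0420 for Rgs9, and 10.5, 15.9, 10.8 and 0.0266 for Rgs7. For the R12 genes it was 32.7, 12.0, 30.6 and 0.593 for Rgs10 and 14, 16.1, 4.25 and 0.115 for Rgs14. Rgs8 had 16.3, 12.1, 10.6 and 0 FPKM, and Rgs3, the least abundant in all 3 brain tissues, 1.8, 1.16, 1.47 and 0.548 FPKM.

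**Figure D5:**
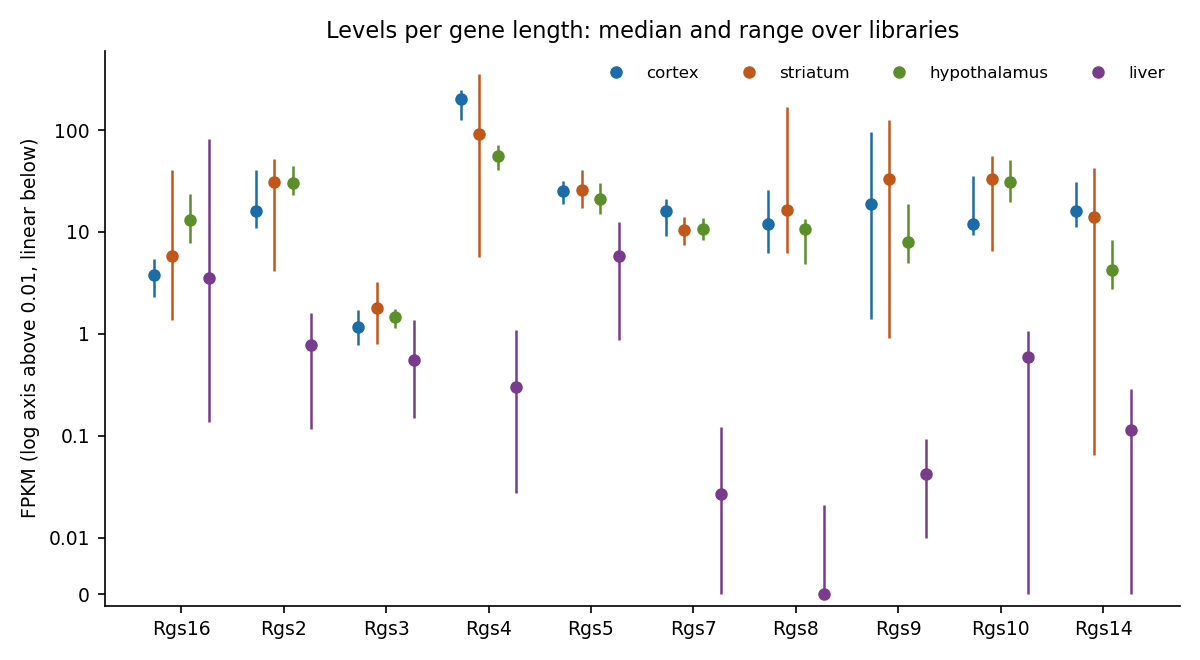
Level of the 10 genes in each tissue in FPKM, with the median as a point and the range over libraries as a bar; the axis is logarithmic above 0.01 FPKM and linear below it. Rgs4 is highest in the 3 brain tissues (medians 202, 90.5 and 55.4), and in liver the bar of Rgs16 spans 0.136 to 82.0.

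Differences in level between tissues were fitted on the joined raw counts, with the cosine and sine of ZT as covariates, and called at an adjusted p under 0.05 with a fold of 2 or more. Hypothalamus was higher than cortex for 2 of 10 members, against 12.3% of all genes tested, and lower for 3, against 10.5%. Rgs16 was 3.12-fold higher (log2 1.64 ± 0.04, SE, edgeR adjusted p = 6.3e-76) and Rgs10 2.17-fold higher, while Rgs14 was 4.26-fold, Rgs4 4.15-fold and Rgs9 2.63-fold lower. Striatum was higher than cortex for 2 of 10 members, against 12.9% of all genes, and lower for 0, against 6.6%, with 2 lower at an unadjusted p under 0.05 before the fold was applied. These were Rgs10, 2.59-fold higher, and Rgs16, 2.65-fold higher (log2 1.40 ± 0.16, SE), which had a log2 difference of 0.76 with the mouse as a block and was then under 2-fold. Rgs4 in striatum minus cortex was -0.91 on the log2 scale, and -1.12 with the mouse as a block, which is past 2-fold. Hypothalamus was lower than striatum for 3 of 10 members, against 6.72% of all genes, and higher for 0, against 4.18%, with 0 higher at an unadjusted p under 0.05. The 3 were Rgs9 at 4.79-fold, Rgs14 at 3.88-fold and Rgs4 at 2.24-fold, and Rgs4 was at -0.94 on the log2 scale with the mouse as a block.

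Liver was lower than cortex for 8 of 10 members, against 39.3% of all genes, and higher for 1, Rgs16, against 27.1%. The falls were 328-fold for Rgs4, 263-fold for Rgs7, 227-fold for Rgs9, 71.4-fold for Rgs14, 11-fold for Rgs2, 10.6-fold for Rgs10 and 2.18-fold for Rgs5, and Rgs8 was at 0 in most liver libraries. Rgs3 differed by -0.02 on the log2 scale. Rgs16 was 3.18-fold higher in liver than in cortex (log2 1.67 ± 0.23, SE, edgeR adjusted p = 1.04e-07), a value that averages a rhythm of the liver far larger than that of cortex. The median of Rgs16 over all libraries was 7.90 CPM in liver and 8.84 CPM in cortex, each scaled within its tissue. By these medians the typical liver library was not higher. The fitted difference was 0.68 on the log2 scale when libraries were scaled by their totals alone. That scaling moved the median of all genes by -0.93 in liver minus cortex, -1.07 in liver minus striatum and -1.12 in liver minus hypothalamus, and by 0.19 and 0.14 in hypothalamus minus cortex and hypothalamus minus striatum. Liver was lower than striatum for 8 members, against 39.7% of all genes, and higher for 0, against 24.1%, and lower than hypothalamus for 7, against 39%, and higher for 0, against 25.5%, with 0 higher at an unadjusted p under 0.05 in either. With library totals alone all 10 members were called lower than in striatum and than in hypothalamus, the added ones being Rgs16 and Rgs3 in both and Rgs5 against hypothalamus. Rgs16 in liver minus striatum was 0.04 on the log2 scale and turned to -1.09 (edgeR adjusted p = 0.00565) when scaled by library totals alone, so its direction depended on the scaling.

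The genes around Rgs16 were looked at for liver rhythms within 200000 bases on either side. Among the neighbours tested, Teddm2 (104074 bases away) had a 2.33-fold ratio with a peak at ZT10.7 (edgeR adjusted p = 5.94e-08) and Teddm1b (128877 bases away) a 3.76-fold ratio with a peak at ZT9.95 (adjusted p = 2.29e-12), at a median of 0.222 CPM. Glul, glutamine synthetase at 154476 bases, had 1.18-fold with a peak at ZT11.8 at 1006 CPM. Npl peaked at ZT1.99 (1.57-fold) and the pseudogene Gm6652 at ZT14.1 (1.53-fold), so the fitted peaks of the neighbours were spread over the day. The antisense gene Gm28513 overlaps 10.1% of the exonic bases of Rgs16. Its median in liver was 0 CPM and its highest value 0.0659 CPM, and whether the counting used strand is not given in the sources used here. On GRCm38, Rgs16 lies at chr1:153740349-153745468, Rgs8 at chr1:153653025-153700323, Rgs2 at chr1:143999338-144004161, Rgs5 at chr1:169655501-169695813, Rgs4 at chr1:169741477-169747642 and Rgs7 at chr1:175059087-175492500. Rgs3 lies at chr4:62559847-62704001, Rgs10 at chr7:128373621-128418758, Rgs9 at chr11:109225355-109298129 and Rgs14 at chr13:55369732-55384687.

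The genes most like Rgs16 were taken as the 5 with the highest Pearson r of log2 CPM over all libraries of a tissue, a description with no test. In liver they were Dbp (r 0.91), Klhl21 (0.90), Anxa7 (0.89), Bri3 (0.89) and Fgfrl1 (0.89), over 77 libraries and 11424 genes, and among the most opposite were Lgalsl (-0.93) and Chka (-0.92). Chka, choline kinase, had 15.7 ± 4.05 CPM (SD, n = 11) at ZT9 and 186 ± 20.3 CPM (SD, n = 12) at ZT0. In cortex they were Vasn (0.76), Bhlhe40 (0.75), Spns2 (0.74), Zbtb8b (0.70) and Cry2 (0.68), of which Bhlhe40 and Cry2 are clock repressors. In striatum they were Ptpn3 (0.94), Ntng1 (0.94), Vangl1 (0.94), F2r (0.93) and Rasd1 (0.92), and in hypothalamus Vax1 (0.61), Cpne2 (0.57), Trh (0.56), Slc14a2 (0.55) and Col5a3 (0.53). The points share library depth and, in striatum, the unequal marker sums given above.

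The partners of the RGS proteins were read from lists of other genes of the pathway. Of other genes with an RGS domain, 9 of 14 tested were called rhythmic in cortex (43.7% of all genes), 1 of 15 in striatum (5.7%), 0 of 14 in hypothalamus (24.3%; 2 at an unadjusted p under 0.05) and 7 of 11 in liver (72.8%). In cortex the smallest adjusted p-values by edgeR were those of the R7 gene Rgs11 (1.24-fold, peak ZT9.99, adjusted p = 6.05e-07), Snx14 (1.15-fold, ZT20.1), the Wnt regulator Axin2 (1.19-fold, ZT20.5) and Rgs17 (1.16-fold, ZT20.6). Of the partners of the R7 proteins 4 of 5 were called in cortex, 1 of 5 in hypothalamus, 0 of 5 in striatum (1 unadjusted) and 0 of 2 in liver (0 unadjusted), against the same 43.7%, 24.3%, 5.7% and 72.8% of all genes. In cortex Gpr179, an orphan receptor that binds R7 complexes, had a 2.48-fold ratio with a peak at ZT0.996, while Rgs7bp, Rgs9bp and Gnb5 peaked at ZT19.2, ZT19.0 and ZT21.3 with ratios of 1.15-fold, 1.5-fold and 1.16-fold. The cortex peak of Rgs7 itself was at ZT9.35.

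Of the G alpha subunits, the direct substrates of the RGS domain, 8 of 14 were called in liver (72.8% of all genes), 4 of 13 in cortex (43.7%), and 0 of 14 in both striatum (5.7%) and hypothalamus (24.3%) by edgeR, with 0 and 3 unadjusted. The liver calls with the smallest p-values were Gnat1, the transducin of rods (7.16-fold, peak ZT8.45, edgeR adjusted p = 1.25e-18), Gna12 (1.52-fold, ZT9.85), the Gs-type subunit Gnal (2.23-fold, ZT7.33) and the Gq-type subunit Gna11 (1.19-fold, ZT16.1). Of the G beta and gamma subunits 10 of 11 were called in liver, 4 of 14 in cortex, 1 of 15 in striatum and 0 of 15 in hypothalamus (3 unadjusted), against the same shares. In liver these were led by Gngt1 (5.14-fold, ZT0.775), Gng12 (1.31-fold, ZT9.70), Gng11 (1.53-fold, ZT22.9) and Gnb2 (1.21-fold, ZT7.20). Of the effectors of Gi and Gq 12 of 17 were called in liver, 5 of 22 in cortex, 3 of 22 in hypothalamus and 0 of 22 in striatum (2 unadjusted), again against those shares. The adenylyl cyclase Adcy6 had a 1.92-fold ratio and a liver peak at ZT11, Plcb3 1.33-fold at ZT21.0, the calcium channel Itpr1 1.6-fold at ZT15.3 and the kinase Prkca 1.75-fold at ZT5.54.

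Of the kinases and arrestins that desensitise receptors, 6 of 7 were called in liver (72.8% of all genes), 4 of 7 in cortex (43.7%), 3 of 7 in hypothalamus (24.3%) and 0 of 7 in striatum (5.7%; 1 unadjusted). Grk5 had an 8.19-fold ratio in liver with a peak at ZT0.316 (edgeR adjusted p = 1.04e-33), nearly opposite to Rgs16, and Grk4 had 2.03-fold at ZT17.6, Grk2 1.16-fold at ZT16.6 and Arrb1 1.30-fold at ZT22.1. Of 16 liver genes that respond to carbohydrate through ChREBP, a factor reported to act on Rgs16, 13 were called, beside 72.8% of all genes, of which 3 peaked from ZT0 to ZT12 and 10 from ZT12 to ZT24. Tkfc (1.91-fold, ZT14.6) and Pklr (2.31-fold, ZT13.9) peaked after Rgs16, and Txnip (1.70-fold, ZT8.48) before it. Of 12 liver genes of fasting 9 were called, beside the same share, with 5 peaking from ZT0 to ZT12. For neither list was the share of all called genes that peak in these hours computed. The gluconeogenic gene Pck1 peaked at ZT11.4 (4.15-fold) and Cpt1a, of fatty acid import into mitochondria, at ZT10.6 (2.39-fold), close to Rgs16, while Pdk4 (11.2-fold) peaked at ZT23.0 and Tat (2.13-fold) at ZT17.4.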

How the data were processed

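The deposited files hold, per tissue, whole read counts per gene and FPKM values, both made by the authors. The submitters' processing notes name STAR 2.7.3a and HTSeq 0.10.0 and list GRCm38 and mm10, without saying which did what. Neither the annotation used for counting nor its strand setting is given in the sources used here. Per the labels, tissue was flash frozen and RNA was taken with a column kit. The deposited FPKM values were proportional to count divided by library total and gene length, and were used for levels between genes. The deposited counts were used for all tests, and CPM are counts divided by the library size in mega counts after TMM scaling. Total counts per library ran from 11.7 to 50.01 mega counts. Since separate mice were sampled, the spread includes that between animals.

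Genes passing edgeR's filter by ZT group were fitted with edgeR 4.0.16 in R 4.3.3 (quasi-likelihood F test, 24 h cosine and sine, Benjamini-Hochberg adjustment over all genes tested). Ratios are fitted peak over trough, with SE by the delta method. Shares of all genes refer to adjusted p-values, and none was computed at an unadjusted p under 0.05. Tissue comparisons used joined raw counts scaled together. Alternatives were DESeq2 1.42.0, other scaling, no filter, ZT as a factor, the cycle, single libraries left out, and blocks for the mouse or the replicate number. Libraries of 1 mouse code were paired across tissues by the labels, and their mean correlation of deviations was 0.017 to 0.055, against about 0 between other mice. Marker sums as covariates were added after the data were seen. Marker relations used Pearson and Spearman correlations of log2 CPM with SciPy 1.17.1, with 100000 permutations. The code was tested on simulated data.

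All 10 members are named in each tissue. From each other list at most 4 genes are named, taken from the tissue with most calls by their smallest adjusted p-values, and for likeness to Rgs16 the 5 genes with the highest r per tissue (and the 3 lowest in liver) among genes whose mean log2 CPM was 1 or more. The members and lists were chosen with earlier results of these data known. Some genes that the naming rules pick are not reported here.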

Additional observations from a re-analysis of the deposited data

Results flagged for a closer look

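In ZT groups of 4 to 10 libraries, 10 of 136 groups tested had a highest or lowest library with a wide gap to the rest. For normally spread, separate groups chance gives about 1 group in 20. Here CPM were used without a log scale and the genes share libraries, so that rate may not hold. The flagged libraries were each the highest of their group. In liver these were 12.7 CPM of Rgs16 at ZT18 (replicate 6, where the median of the others was 1.23 CPM), 0.287 CPM of Rgs7 at ZT18 (replicate 3), 0.790 CPM of Rgs9 at ZT18 (replicate 4, the library that stood apart, where this was 2 counts) and 54.8 CPM of Rgs5 at ZT21 (replicate 3). In striatum they were 78.9 CPM of Rgs16 at ZT3 (replicate 7, others at a median of 5.56 CPM) and 1554 CPM of Rgs8 at ZT21 (replicate 3, others at a median of 179.8 CPM). In hypothalamus they were 118 and 59.6 CPM of Rgs9 at ZT15 (replicate 5) and ZT18 (replicate 1) and 199.9 CPM of Rgs4 at ZT21 (replicate 3). In cortex it was 160.6 CPM of Rgs8 at ZT21 (replicate 5).

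The test of a difference in rhythm between a pair of tissues was past its threshold in 18 cases, with these edgeR adjusted p-values. Between hypothalamus and cortex Rgs16 had 8.78e-06. Between liver and cortex the values were 7.06e-44 for Rgs16, 1.26e-08 for Rgs2, 0.00272 for Rgs3, 2.6e-06 for Rgs4, 0.0120 for Rgs5 and 0.000513 for Rgs7. Between liver and striatum they were 8.76e-20 for Rgs16, 0.00126 for Rgs2, 0.0114 for Rgs4 and 0.00597 for Rgs7. Between liver and hypothalamus they were 4.67e-44 for Rgs16, 3.25e-11 for Rgs2, 0.0451 for Rgs3 (0.0673 without the libraries that stood apart), 6.58e-08 for Rgs4, 0.0267 for Rgs5, 0.000135 for Rgs7 and 0.0111 for Rgs14.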

How the results depend on the processing

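Of the single-gene values recomputed under the alternatives, 1 reversed its sign: Rgs16 in liver minus striatum, 0.04 on the log2 scale and -1.09 with library totals alone. Counts of members called moved by more than 1.5 times as follows, and the cause was not tested. Rhythmic members in hypothalamus were 2, and 1 in the first cycle alone. In liver they were 7, and 4 with ZT as a factor. In striatum they were 0, and 1 with the DESeq2 likelihood ratio test, with the cycle as a covariate and with ZT as a factor, and between 0 and 1 with each of the 6 libraries of ZT15 and ZT18 left out in turn (1, Rgs8, without ZT18 replicate 1 or replicate 3). Members that differed between cycles in cortex were 3, and 0 with no filter on low counts and 5 without the libraries that stood apart. In striatum they were 1, and 2 with DESeq2 size factors, 0 with no filter and 0 without those libraries. Counts over all genes that moved by as much were the rhythmic genes of hypothalamus (4967, and 2155 in the first cycle alone) and striatum (1233, and 326), the genes that differed between cycles in cortex (1290, and 3076 without the libraries that stood apart) and striatum (579, and 0 with no filter or without those libraries), and the rhythm differences of hypothalamus and striatum (59, with 0 under the mouse block and 12 without those libraries) and of striatum and cortex (97, with 9 under the mouse block). Genes with a second harmonic were 65 in cortex and 137 without those libraries, 14 in hypothalamus and 68 with no filter, and 6 in striatum with 41 and 0. Striatum had 2 libraries at ZT15 and 4 at ZT18, and liver Rgs7 at most 26 counts in a library.

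Replicate numbers are shared between ZT groups in the labels but name no common mouse, and same-numbered libraries correlated as low as -0.36, -0.57, -0.48 and -0.33 in cortex, striatum, hypothalamus and liver. Their mean correlation was 0.074, 0.064, 0.115 and 0.0024 in the same order. Between libraries of other numbers it was -0.0054, -0.0053, -0.0103 and 0.00015. With the replicate number as a block, members that differed between cycles were 0 in cortex and 0 in striatum, and the second harmonic was called for 1 member in striatum (Rgs10, adjusted p = 0.0284), while cortex Rgs2 had an adjusted p of 0.0203 for its rhythm. Over all genes the block gave 3 and 37 rhythm differences for the same 2 pairs of tissues, 259, 0 and 1 genes that differed between cycles in cortex, striatum and hypothalamus, and 128, 0 and 5207 genes with a second harmonic in cortex, hypothalamus and striatum. Libraries closer to their own number were 64 of 78 in cortex, 39 of 60 in striatum, 63 of 77 in hypothalamus and 44 of 77 in liver.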
